A study of Mus musculus with 18 samples.

Results

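Conditional knockout lines of mouse embryonic stem (ES) cells were compared before either gene was deleted, using their lists of open chromatin regions. The libraries were the 2 from the Baf53a fl/- line and the 2 from the Brg1 fl/fl line that had received ethanol, the solvent of tamoxifen. Peaks of these 4 lists that overlapped by 1 bp or more on chromosomes 1 to 19 were merged, which gave 175512 regions. Merging all 18 lists of the series in the same way gave 365034 regions, and 166356 of those held a peak in 1 or more of the 4 ethanol lists.

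The Baf53a line carried 1 floxed and 1 null allele (Baf53a fl/-), so that its ethanol cells had a single working copy. This genotype follows the sample titles and the series' design, whereas the peak names inside the deposited lists spell the line Baf53aflfl. The Brg1 line carried floxed alleles only (Brg1 fl/fl), and its ethanol cells kept both. Every cell of both lines also carried Actin-CreER, a Cre recombinase that tamoxifen switches on, driven by an actin promoter. Cells were grown on gelatin in serum and LIF, given ethanol for 24 h, moved to fresh medium for 48 h, and sorted for viability, with 50000 cells per library. The matched deletion libraries received 0.8 µM tamoxifen in place of ethanol. The remaining 10 libraries came from wild-type ES cells given DMSO or the TOP2 inhibitor ICRF-193 for 1 h or 24 h. The 2 libraries of a group were passages of 1 line, so that genotype cannot be told apart from any other difference between the lines. A p-value here reflects variation between libraries within groups only, not between independent lines. For bins and chromosomes that variation was pooled over the groups of all 18 libraries. ES cell identity was not checked against marker genes, because an annotation of the files' build, mm9, was not used here.

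Brg1 (Smarca4) is the ATPase of the BAF complex of ES cells, which slides and evicts nucleosomes. Baf53a (Actl6a) is an actin-related subunit of the same complex and also belongs to other chromatin complexes, among them INO80 and TIP60. In ATAC-seq a transposase cuts accessible DNA, and a peak marks a stretch where cuts pile up, such as a promoter, an enhancer or an insulator site.

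The size and shape of the lists overlapped between the lines. The Baf53a fl/- lists held 108137 and 82259 autosomal peaks (95198 ± 18299, SD, n = 2) and the Brg1 fl/fl lists 105206 and 83240 (94223 ± 15532, SD, n = 2). In each line replicate 1 gave the longer list, and the difference between the lines was far smaller than that between passages. The difference of the mean log2 number of peaks was 0.011, with an exact permutation p of 1.0 (two-sided; the smallest p that 2 against 2 libraries can give is 0.33). Median peak width was 224 and 203 bp in Baf53a fl/- and 204 and 214 bp in Brg1 fl/fl. Peaks of 1 kb or more made up 1.98% and 0.880% of the Baf53a fl/- lists against 0.970% and 1.09%, and peaks covered 33.0 and 22.5 Mb against 28.9 and 23.8 Mb. These 3 measures overlapped between the lines as well, each with an exact permutation p of 1.0. Read counts are absent from the lists, so depth is unknown. Over all 18 libraries the autosomal lists ran from 45517 to 124541 peaks.

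Most strong sites were open in both lines. All 4 lists held a peak in 42479 regions, 24.2% of the total, while 89730 regions were found in a single list. Peaks in the fifth of a list with the highest authors' scores had a peak in each of the other ethanol lists in 95.1% to 99.8% of cases, and peaks in the fifth with the lowest scores in 11.9% to 38.1%. Passages of a line shared about as much as passages of different lines. The bases shared by a pair of lists, as a fraction of the bases covered by either, were 0.419 within Baf53a fl/- and 0.428 within Brg1 fl/fl. Between the lines the same fraction ran from 0.388 (Baf53a fl/- replicate 2 with Brg1 fl/fl replicate 1) to 0.445 (Baf53a fl/- replicate 1 with Brg1 fl/fl replicate 2). Both replicate 1 lists, and no other, held 7988 regions (4.55%), and both replicate 2 lists, and no other, 1542 (0.879%). Baf53a fl/- replicate 1 with Brg1 fl/fl replicate 2, and no other, held 4546 (2.59%). Baf53a fl/- replicate 2 with Brg1 fl/fl replicate 1, and no other, held 2146 (1.22%).

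A region was called private to a line when both of its ethanol lists held a peak there and neither list of the other line did. Baf53a fl/- had 4795 private regions, 2.73% of all regions, and Brg1 fl/fl had 3325, 1.89%. Both counts lay within the range of the pairs above that mix the lines, 1542 to 7988, so their size alone shows no line difference. Of the regions that both passages of a line held, 8.51% of 56334 in Baf53a fl/- and 5.97% of 55705 in Brg1 fl/fl were private. With the lists shortened to equal length the counts were 3971 and 3483. Private regions were narrow and weak. Their median width was 244 bp in Baf53a fl/- and 237 bp in Brg1 fl/fl, against 513 bp for the regions in all 4 lists, and their median score percentile within a list was 35.6 and 34.4, against 72.9. Only 36 (0.751%) and 35 (1.05%) reached a score percentile of 80, against 15825 (37.3%) of the regions in all 4 lists.

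The tamoxifen and wild-type libraries took no part in choosing these regions. Regions private to Baf53a fl/- had a peak in 41.1% and 35.3% of cases in the Baf53a tamoxifen lists and in 29.3% and 10.9% in the Brg1 tamoxifen lists. Regions private to Brg1 fl/fl had a peak in 30.1% and 11.3% of cases in the Brg1 tamoxifen lists and in 26.4% and 22.8% in those of Baf53a. The Baf53a set was thus found more often in each list of its own line than in each list of the other, whereas for the Brg1 set the lists of the lines overlapped. The second Brg1 tamoxifen list was the shortest of the series (45517 peaks, against 83074, 86956 and 85366 in the other tamoxifen lists), and it held a peak in 60.0% of the regions common to all 4 ethanol lists, against 83.1%, 90.8% and 84.5%. The part of list length in these shares was not tested. Tamoxifen deletes a different gene in each line. In its lists, here and below, a line difference cannot be told apart from an effect of the deletion. In the wild-type lists, 10.99% to 51.2% of the Baf53a set and 14.4% to 55.5% of the Brg1 set had a peak.

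The share of private regions that kept the line pattern after tamoxifen was highest in the class with the highest scores, although most regions that kept it were weaker ones. Among all private regions, 508 of 4795 (10.6%) of the Baf53a set had a peak in both Baf53a tamoxifen lists and in neither Brg1 tamoxifen list, and 63 (1.31%) had the opposite pattern. For the Brg1 set, 113 of 3325 (3.40%) repeated the pattern and 141 (4.24%) had the opposite one. The share of all regions with these tamoxifen patterns was not counted. These counts alone therefore do not show that a line difference persisted. The part of the short second Brg1 tamoxifen list in them was not tested. Among regions with a mean score percentile of 75 or more, 36 of 77 (46.8%) repeated the line pattern in the Baf53a set and 20 of 61 (32.8%) in the Brg1 set. The opposite pattern was shown by 0 in either set. In that class the Baf53a set was found in 83.1% and 77.9% of cases in the lists of its own line and in 26.0% and 13.0% in those of the other. The Brg1 set was found in 73.8% and 45.9% of cases in its own line and in 21.3% and 14.8% in the other. Of the 508 regions that repeated the pattern in the Baf53a line, 58 had a peak in all 5 wild-type DMSO lists and 64 in no wild-type list. Of the 113 in the Brg1 line, these numbers were 29 and 10. Over all 4795 regions of the Baf53a set they were 259 (5.40%) and 746 (15.56%). Over all 3325 of the Brg1 set they were 308 (9.26%) and 374 (11.25%).

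**Figure D1:**
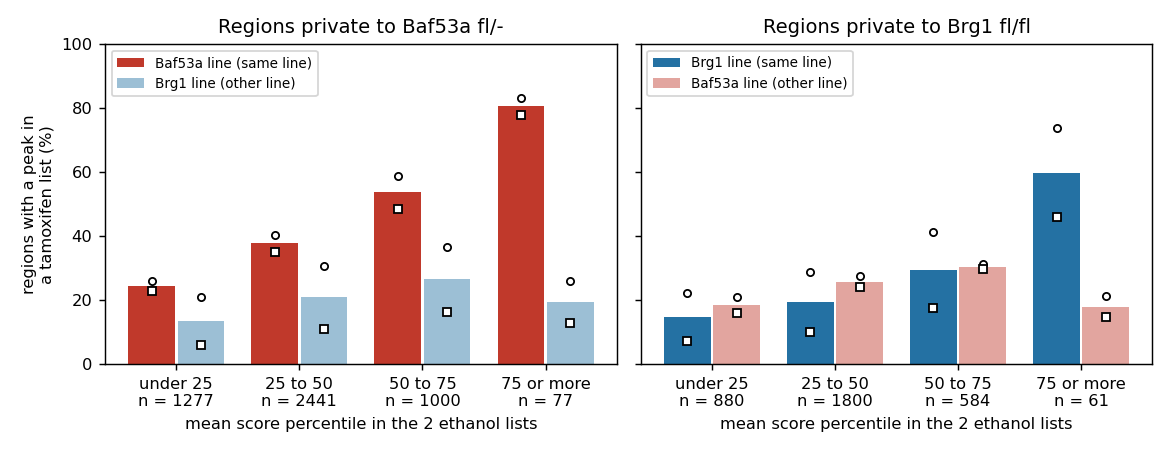
Percent of line-private regions with a peak in the tamoxifen lists (y axis) by mean score percentile in the ethanol lists (x axis, number of regions below), bars for the mean of 2 lists, circles for replicate 1 and squares for replicate 2. At a percentile of 75 or more, the lists of the same line stand at 83.1% and 77.9% (Baf53a) and 73.8% and 45.9% (Brg1), all above those of the other line.

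The strongest region private to Baf53a fl/- lay at chr17:6429115-6429403 (mm9, counted from 1), with a mean score percentile of 98.5 ± 1.57 (SD, n = 2). It had a peak in all 10 wild-type lists and both Baf53a tamoxifen lists and in neither Brg1 tamoxifen list, and no peak of a Brg1 ethanol list came nearer than 103578 bp. In this case the Brg1 line was the one that stood apart from wild type. The region at chr9:6435082-6435472 (percentile 94.4 ± 4.01, SD, n = 2) had a peak in 8 of the 10 wild-type lists and the same pattern after tamoxifen. The region at chr12:55261219-55261667 (92.2 ± 1.75) had a peak in all 10 wild-type lists, in both Baf53a and in 1 Brg1 tamoxifen list. The region at chr6:111321781-111322338 (91.9 ± 0.055) went the other way, with a peak in 0 of the 10 wild-type lists, both Baf53a tamoxifen lists and neither of Brg1. The region at chr3:30916513-30916893 (89.2 ± 1.38) had a peak in 4 wild-type lists and both Baf53a tamoxifen lists. Its nearest Brg1 ethanol peak was only 724 bp away. For the regions on chromosomes 12, 9 and 6 this distance was 874, 4928 and 73853 bp.

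By width, the Baf53a set was led by chr2:51338565-51339467, with 890 and 619 bases under peaks in the ethanol lists. It was also absent from every wild-type list and the Brg1 tamoxifen lists, and present in both Baf53a tamoxifen lists. Next came chr7:134758082-134759395 (1090 and 385 bases, 8 wild-type lists), with a peak in both Baf53a and neither Brg1 tamoxifen list. It was followed by neighbours on chromosome 9, chr9:123842926-123843734 and chr9:123843904-123844741, described with the clusters. The last of the 5 widest, chr11:68200150-68201059 (758 and 572 bases, 9 wild-type lists), had a peak in both Baf53a and in 1 Brg1 tamoxifen list. A Brg1 ethanol peak lay 525 bp from it, the smallest such distance of the 5 widest.

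The strongest region private to Brg1 fl/fl lay at chr17:70752986-70753584, with a mean score percentile of 99.1 ± 0.447 (SD, n = 2). It had a peak in all 10 wild-type lists, in both Brg1 tamoxifen lists and in neither of Baf53a, so that here the Baf53a line stood apart. Of the 5 strongest, 3 more were found in both Brg1 tamoxifen lists and in neither of Baf53a: chr5:25174067-25174601 (98.5 ± 0.123, 5 wild-type lists), chr13:19516277-19517047 (97.0 ± 1.91, 9 lists) and chr13:114510672-114510935 (91.3 ± 6.82, 10 lists). The region at chr2:41197239-41197571 (92.5 ± 2.41, 7 wild-type lists) had a peak in 1 tamoxifen list of each line. The nearest Baf53a ethanol peak lay 1303 to 12909 bp from these 5 regions. The widest region private to Brg1 fl/fl, chr5:145621306-145622518 (1029 and 972 bases), had no peak in the wild-type lists but had one in all 4 tamoxifen lists, of both lines. The next, chr5:23198374-23199367 (592 and 992 bases), was absent from the wild-type lists and had a peak in both Brg1 and in 1 Baf53a tamoxifen list. The region at chr14:77024454-77025119 (666 and 574 bases) was in all 10 wild-type lists, both Brg1 and neither Baf53a tamoxifen list, and chr3:93971138-93971854 (449 and 717 bases) was in 9 wild-type lists, 1 Baf53a tamoxifen list and neither of Brg1.

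**Figure D2:**
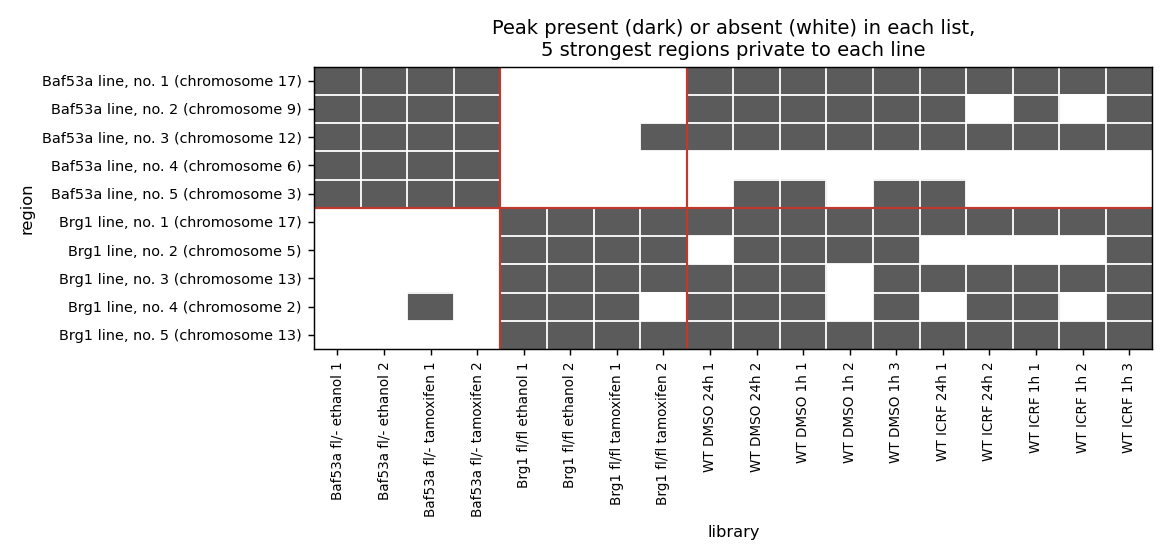
Presence (dark) or absence (white) of a peak in each of the 18 lists (x axis) for the 5 strongest regions private to each line (y axis, by chromosome). The ethanol pattern was the rule for choosing them, and in the tamoxifen lists 2 of the 10 regions have a peak in the other line, no. 3 of the Baf53a set and no. 4 of the Brg1 set.

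Some private regions lay side by side. Most did not: 4182 of the Baf53a set and 2969 of the Brg1 set had no neighbour of the same set among the regions found in 2 or more lists. The clearest cluster was on chromosome 2, where 2 of the 3 longest runs private to Brg1 fl/fl fell within chr2:77707772-77850316, a window of 142.5 kb. The Baf53a fl/- ethanol lists held 4 and 6 peaks in this window and the Brg1 fl/fl lists 24 and 28. After tamoxifen the numbers were 4 and 4 in the Baf53a line and 27 and 12 in the Brg1 line, and the wild-type lists held 11 to 30, with a median of 26. All 4 Baf53a lists therefore lay below all 14 others here. In the part at chr2:77798608-77850316 the 4 Baf53a lists held 0 peaks, the Brg1 lists 13 and 15 with ethanol and 13 and 4 with tamoxifen, and the wild-type lists 2 to 14.

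Clusters of the opposite sign stood on chromosomes 5, 9 and 14. In chr9:123834219-123844741, a window of 10.5 kb, the Baf53a line held 6 and 6 peaks with ethanol and 5 and 4 with tamoxifen. The Brg1 line held 0 in each of its 4 lists, and the wild-type lists 0 or 1, so that all 4 Baf53a lists lay above all 14 others. In chr5:14882531-14952498, a window of 70.0 kb, the Baf53a line held 10 and 9 peaks with ethanol and 9 and 8 with tamoxifen, the Brg1 line 2 and 0 with ethanol and 1 and 1 with tamoxifen, and the wild-type lists 0 to 7. The Baf53a lists again lay above all others. The run at chr14:4213213-7860458 was spread thinly over 3647 kb, with 17 and 13 peaks in Baf53a fl/- and 0 and 0 in Brg1 fl/fl with ethanol. After tamoxifen the numbers were 9 and 5 against 1 and 0, and the wild-type lists held 3 to 13. The third Brg1 run, chr3:37029312-37080256, was small, with 0 and 0 peaks in Baf53a fl/- and 4 and 4 in Brg1 fl/fl (0 and 1 against 3 and 1 after tamoxifen, and 0 to 4 in wild type). These windows were chosen for the ethanol difference, which is therefore a description. Copy number was not analysed here.

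**Figure D3:**
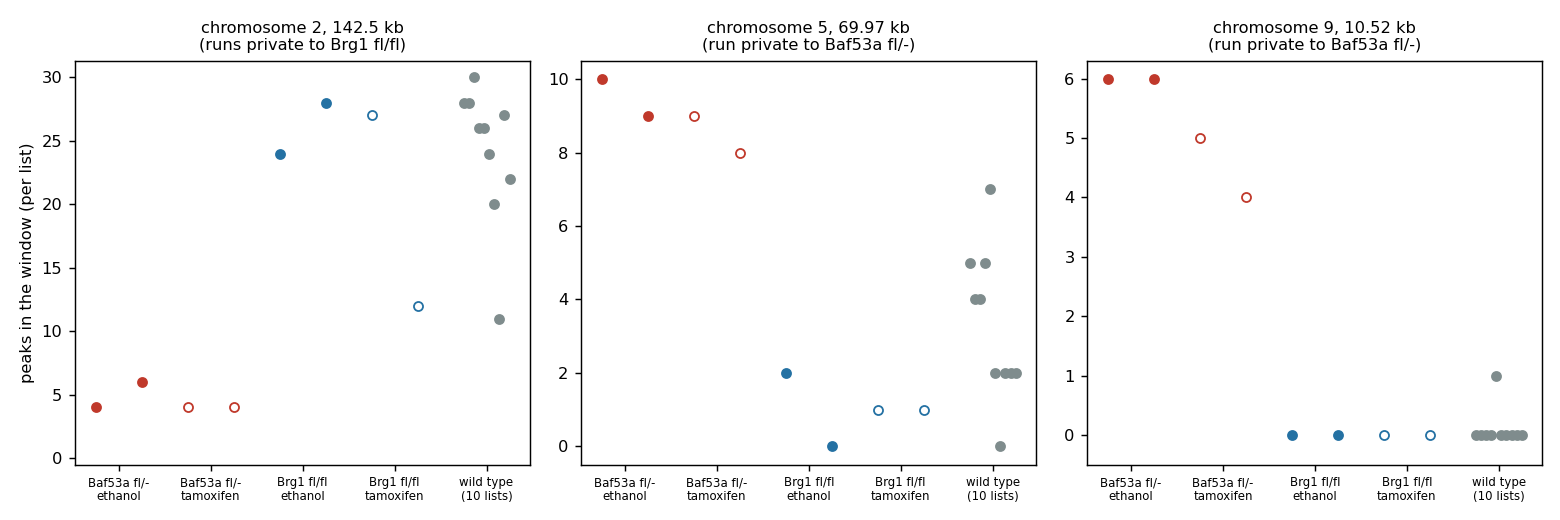
Number of peaks per library (y axis) in windows with runs of private regions on chromosomes 2, 5 and 9. There is 1 point per library, by line and treatment (filled for ethanol or wild type, open for tamoxifen). The chromosome 2 window spans 2 runs and the stretch between them, and the runs on chromosomes 14 and 3 are not drawn. The Baf53a lists hold 4 to 6 peaks in the chromosome 2 window where wild type holds 11 to 30, and 4 to 6 in the chromosome 9 window where wild type holds 0 or 1.

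Peak numbers were then compared over whole chromosomes, as the percent of autosomal peaks on each, with limma over all 18 libraries. No chromosome was called at an adjusted p under 0.05 (0 of 19, 0.0%). Near the share of 0.05 met when no chromosome differs, 1 of the 19 had an unadjusted p under 0.05. That was chromosome 14, which held 3.78% and 3.62% of peaks in Baf53a fl/- (3.70 ± 0.109, SD, n = 2) and 4.22% and 4.03% in Brg1 fl/fl (4.13 ± 0.132, SD, n = 2). The groups did not overlap on chromosome 14, nor did they on chromosomes 6, 7, 15 and 17. The log2 difference of chromosome 14 was -0.16 (SE 0.045, limma adjusted p = 0.0508). After tamoxifen the values were 3.77% and 3.58% in the Baf53a line and 3.97% and 3.85% in the Brg1 line, which again did not overlap. The wild-type lists ran from 3.73% to 4.24% with a median of 3.90%, and held the whole range of the Brg1 line, while 1 list of each Baf53a condition lay below them. The call depended on the setting. With replicate number as a block the limma adjusted p was 0.00721, with equal list lengths the log2 difference was -0.11 (limma adjusted p = 0.0195), by percent of covered bases -0.17 (adjusted p = 0.00367), and without Brg1 fl/fl replicate 2 -0.19 (adjusted p = 0.0490). It was not called with the 4 ethanol libraries only (limma adjusted p = 0.129), nor without Baf53a fl/- replicate 2 (-0.13, adjusted p = 0.648), Brg1 fl/fl replicate 1 (adjusted p = 0.326) or Baf53a fl/- replicate 1 (-0.19, adjusted p = 0.0658). The chromosomes with the highest differences, 15 and 19, both stood at 0.06 and were not called. In the same 4 ethanol lists, chromosome 14 was the only autosome on which regions private to Brg1 fl/fl outnumbered those private to Baf53a fl/-, with 214 against 168. This count is no separate support, since it rests on the same peaks. Of these, 7 and 12 repeated the line pattern after tamoxifen, against 113 and 508 over all autosomes.

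**Figure D4:**
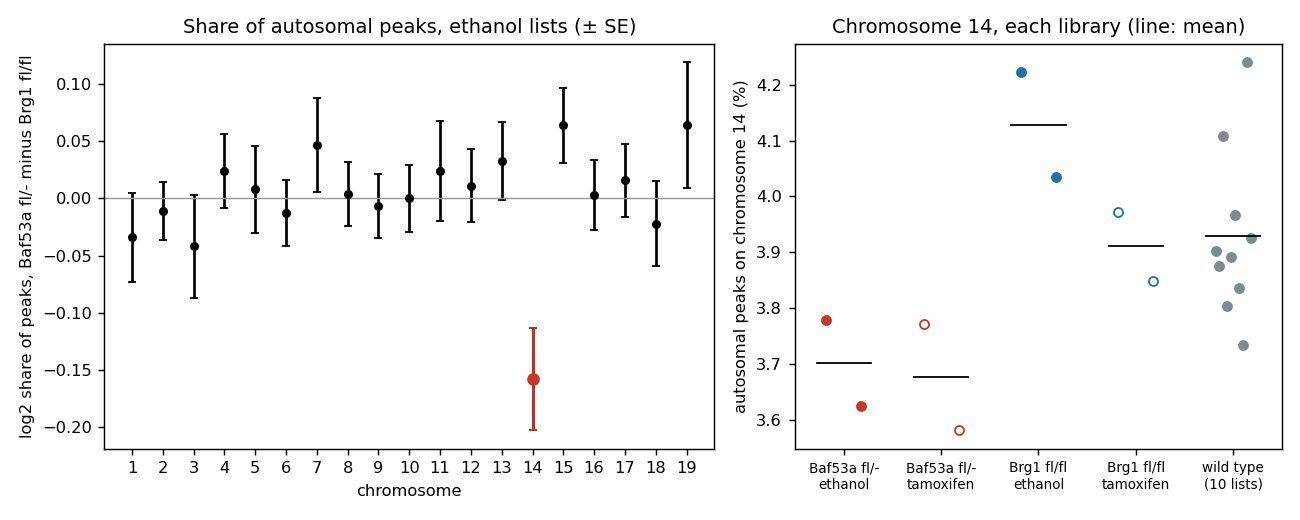
Log2 difference in the share of autosomal peaks, Baf53a fl/- minus Brg1 fl/fl (ethanol), for each autosome with its standard error, and beside it the percent of autosomal peaks on chromosome 14 in each library, on an axis that does not start at 0. Chromosome 14 lies lowest at -0.16, and its share is 3.78% and 3.62% in Baf53a fl/- against 4.22% and 4.03% in Brg1 fl/fl.

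The lower values of chromosome 14 were spread along its tested bins, which begin at 8000001. The run at chr14:4213213-7860458, where Baf53a fl/- held more peaks than Brg1 fl/fl, lies outside them. Of its 102 bins of 1 Mb, 79 (77.5%) were lower in Baf53a fl/-, with a median log2 difference of -0.14, against 1083 of all 2131 bins (50.8%) and a median of -0.01. The deepest stretch, between 9000001 and 20000000, was picked after its values were seen. All 11 of its bins were lower (median -0.54, range -1.35 to -0.25), and it held 2.61 and 2.35 of every 1000 peaks in Baf53a fl/- against 3.89 and 3.53 in Brg1 fl/fl. After tamoxifen the values were 2.37 and 2.19 against 2.75 and 2.86, and wild-type lists ran from 2.46 to 3.52. The Brg1 ethanol lists were thus the highest of all 18 here, and 3 of the 4 Baf53a lists were below the wild-type range. Of the other 91 bins of the chromosome, 68 were lower, with a median of -0.11. Within replicate numbers 1 and 2, 60 and 56 of those 91 were lower. Without this stretch the chromosome's log2 difference was -0.12 (limma adjusted p = 0.253), against -0.16 with it. The longest series of consecutive tested bins with 1 sign was also on chromosome 14, between 65000001 and 88000000, with 19 bins lower in Baf53a fl/- and a median of -0.25. Within it 4 bins held too few peaks to be tested.

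**Figure D5:**
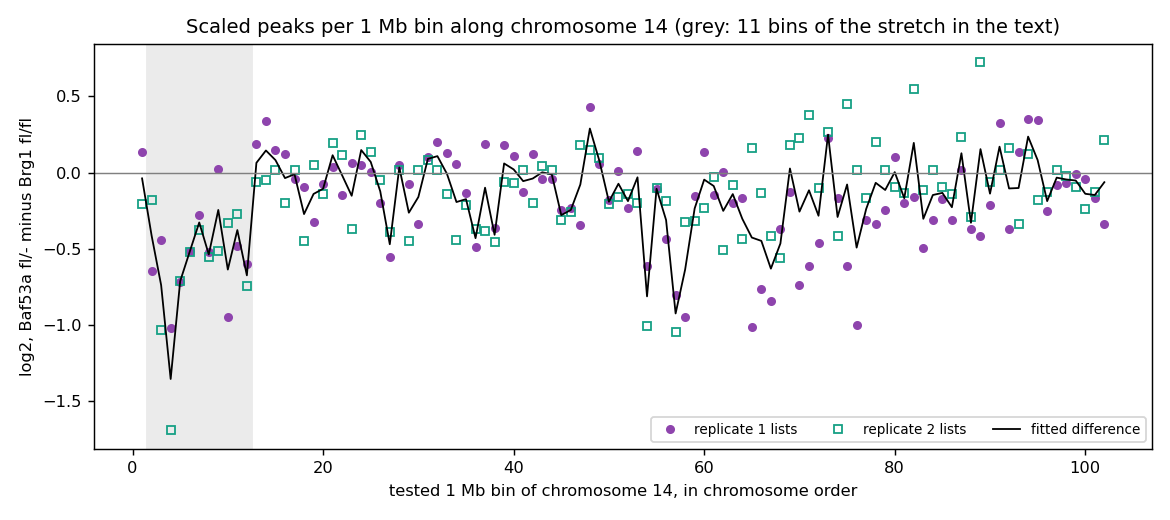
Log2 difference in scaled peak number, Baf53a fl/- minus Brg1 fl/fl (ethanol), for the tested 1 Mb bins of chromosome 14 in order (x axis), as the fitted difference (line) and within each replicate number (points), with the 11 bins of the deepest stretch in grey. The fitted line below 0 marks bins that hold fewer peaks in Baf53a fl/-, as 79 of the 102 do, and the lowest bin is at -1.35.

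No single 1 Mb bin was called by limma over the 18 libraries (0 of 2131, 0.0%). Of the 2131, 74 had an unadjusted p under 0.05, below the share of 0.05 met when no bin differs. The bins with the smallest p are given here although none passed the threshold. At chr5:15000001-16000000 the lists held 63 and 51 peaks in Baf53a fl/- and 37 and 32 in Brg1 fl/fl (log2 difference 0.70, SE 0.16, limma adjusted p = 0.136). After tamoxifen the bin held 54 and 69 peaks in the Baf53a line and 34 and 20 in the Brg1 line, so the lines did not overlap in either condition. Per 1000 peaks, the 4 Baf53a lists (0.583 to 0.808) lay above the Brg1 lists (0.352 to 0.439) and the wild-type lists (0.339 to 0.569). At chr14:11000001-12000000 the lists held 16 and 7 peaks against 32 and 24 (-1.35, SE 0.30, adjusted p = 0.136). After tamoxifen the Brg1 lists stood nearer to those of Baf53a, still without overlap. They held 0.144 and 0.132 of every 1000 peaks, and the Baf53a tamoxifen lists 0.127 and 0.070. Wild-type lists ran from 0.189 to 0.265. The Brg1 ethanol lists (0.304 and 0.288) lay above that range, and the Baf53a ethanol lists (0.148 and 0.085) and all tamoxifen lists below it. At chr14:73000001-74000000 there were 36 and 37 peaks against 68 and 47 (-0.64, SE 0.15, limma adjusted p = 0.136), and per 1000 peaks 0.425 and 0.363 against 0.626 and 0.813 after tamoxifen. The bin at chr2:77000001-78000000, which contains the chromosome 2 cluster, contained 45 and 48 peaks against 69 and 76 (-0.65, SE 0.16, limma adjusted p = 0.172), and per 1000 peaks 0.472 and 0.551 against 0.722 and 0.637 after tamoxifen. With replicate number as a block, limma called the bins at chr5:15000001-16000000 and chr14:11000001-12000000 (adjusted p = 0.0438 each). The next bins with higher values in Baf53a fl/- were chr5:94000001-95000000 (31 and 17 against 12 and 11 peaks) and chr1:172000001-173000000 (66 and 49 against 53 and 32), with limma adjusted p of 0.611 and 0.768. In bins of 500 kb, 2 of 3063 were called by limma, both lower in Baf53a fl/-. The first, chr2:77500001-78000000, held 17 and 17 peaks against 35 and 37 (-1.07, SE 0.19, adjusted p = 0.00441), and the second, chr14:52000001-52500000, held 7 and 6 against 23 and 17 (-1.55, SE 0.29, adjusted p = 0.00512). After tamoxifen the first held 0.184 and 0.199 of every 1000 peaks in the Baf53a line against 0.457 and 0.351 in the Brg1 line, and the second 0.069 and 0.0703 against 0.169 and 0.198, so that the lines overlapped in neither. The 1 Mb bin that contains the second, chr14:52000001-53000000, was not called. It held 67 and 54 peaks against 84 and 75 with ethanol (-0.41, SE 0.14, limma adjusted p = 0.881).

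Where all 4 lists held a peak, the bases under peaks were compared region by region. No region was called by limma on the 4 libraries (0 of 42479, 0.0%), and the smallest adjusted p was 0.909. An unadjusted p under 0.05 was found for 2271 of the 42479, near the share of 0.05 met when no region differs. The log2 difference was within 2-fold in 96.5% of regions. Beyond 2-fold and without overlap between the lines, 785 regions were wider and 624 narrower in Baf53a fl/-, together 1409 of 42479. At any fold, the lines did not overlap in 15.7% of regions that were wider and 17.5% that were narrower in Baf53a fl/-. Full separation of 2 against 2 values has an exact permutation p of 0.33, so these counts are a description. The region with the smallest p among the wider ones, chr6:90181861-90183115, had 1120 and 925 bases in Baf53a fl/- and 257 and 210 in Brg1 fl/fl (2.07, SE 0.29). It had 910 and 343 against 344 and 116 after tamoxifen, and 0 to 859 in wild type. The others, chr16:97831789-97833218 (1270 and 1012 against 403 and 353 bases) and chr1:156945109-156947082 (1636 and 1140 against 640 and 433), were not called either. After tamoxifen the chromosome 16 region had 639 and 716 bases against 356 and 0, and the chromosome 1 region 955 and 489 against 967 and 554, so that the lines overlapped in the latter.

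Among the narrower regions, chr14:24823406-24824489 had 104 and 150 bases in Baf53a fl/- and 920 and 751 in Brg1 fl/fl (-2.80, SE 0.43, limma adjusted p = 0.909). After tamoxifen it had 374 and 543 against 496 and 0 bases, so that the lines then overlapped. At chr6:93598109-93599043 the lists had 377 and 198 bases against 928 and 866, with 179 and 206 against 758 and 562 after tamoxifen and 574 to 921 in wild type. All 4 Baf53a lists were narrower there than all 14 others, whose lowest value was 562 bases. At chr5:20750418-20751370 the lists had 152 and 105 bases against 738 and 599, with 159 and 159 against 633 and 180 after tamoxifen and 0 to 262 in wild type, so that 3 of the 4 Brg1 lists lay above the wild-type range and the second Brg1 tamoxifen list within it. Leaving out a Brg1 fl/fl library changed the count from 0: without replicate 1, limma called 62 regions wider and 7 narrower, and without replicate 2, 33 and 4. Each of these fits has 1 residual degree of freedom.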

How the data were processed

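ATAC-seq of 18 mouse ES cell samples was deposited as 1 peak list per sample. The submitters' processing notes name mm9 as the build and list Bowtie 0.12.9, edgeR 3.12.1 and MACS2 without their roles. How reads were shifted, filtered and turned into peaks is not given in the sources used here. Each peak's score is the authors' own deposited value, with no unit stated, and only ranked peaks within a list. Positions (other values) are as deposited, counted here from 1.

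Peaks of the 4 ethanol lists were merged at 1 bp of overlap. Peaks per 1 Mb bin (mean of 10 or more over 18 lists) were fitted as log2((peaks + 0.5) / autosomal peaks × 1000), with 1 term per group and a variance trend. Chromosome shares were fitted over all 18 libraries, and log2 bases under peaks, centred on each library's median, over the 4. The tool was limma 3.58.1 in R 4.3.3, with Benjamini-Hochberg adjustment over all features and a threshold of 0.05. Exact permutation tests (two-sided) were used for the list measures. Python 3.11.15, numpy 2.4.6, pandas 2.3.3 and scipy 1.17.1 were used for the rest, and the tests were tried on simulated data.

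Named features were, per direction, the 5 strongest and 5 widest private regions, the 3 longest runs of private regions among regions in 2 or more lists, the 3 bins and 3 shared regions with the smallest p where none was called, and the highest and lowest chromosome. The comparison, rules and lists were chosen with earlier results of these data known. Alternatives were equal list lengths, stricter presence, a 500 bp margin, other bin sizes, filters, pseudocounts and scalings, a replicate block and leaving out each library. The planned promoter and marker analyses were not run, since the gene table used here follows another build.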

Additional observations from a re-analysis of the deposited data

How the results depend on the processing

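Private regions numbered 596 (Baf53a fl/-) and 371 (Brg1 fl/fl) when presence needed the top 50% of a list, and 3816 and 2675 with a 500 bp margin. With 1 library left out, so that presence or absence needs fewer lists, they numbered 8631 to 33333 and 4734 to 33824. In both lines the deposited lists of replicates 1 and 2 carry different prefixes and years in their names, a split shared by both groups. The labels do not say that a number marks a batch, and deviations of equal numbers correlated at r = 0.20 over 2131 bins. As a replicate block, number 1 alone gave 41715 and 37379 private regions and number 2 alone 28944 and 30277. The differences of list measures turned negative within number 2: log2 peak number -0.0171, median width -11.0 bp, percent of peaks of 1 kb or more -0.205 and covered length -1.32 Mb. Leaving out 1 library gave -0.19 to 0.21, -6.0 to 15.0 bp, -0.147 to 0.949 and -3.85 to 6.63 Mb. The limma count of called 1 Mb bins rose from 0 to 1 higher and 1 lower with the block or with equal list lengths, 1 and 4 with the 4 ethanol libraries only, 1 and 3 with quantile normalization, and 0 and 2 in 500 kb bins. It was 0 under each omission of a library. Chromosome 14 was called by limma as lower with the replicate block (-0.16, adjusted p = 0.00721), equal lengths (-0.11), covered bases (-0.17) and without Brg1 fl/fl replicate 2 (-0.19), 1 chromosome each time. Over the omissions its log2 difference ran from -0.19 to -0.125 and its adjusted p ran from 0.0490 to 0.648, and 0 or 1 chromosomes were called. Called shared regions numbered 0 to 62 wider and 0 to 7 narrower over the omissions. Of the other alternatives for single bins and regions, 82 kept their side of the threshold and 20 passed it. Read depth is unknown, so absence from a list means only that no peak was called, and most private regions are weak ones.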

Other observations

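The sex chromosomes were left out of the regions. The Baf53a fl/- ethanol lists held 45 and 41 peaks on chromosome Y and the Brg1 fl/fl lists 50 and 47. Over the 8 lists of both lines the number ran from 38 to 52, and the 10 wild-type lists held 0. Whether chromosome Y was filtered is not given in the sources used here. Chromosome X held 2.10% and 1.93% of peaks in Baf53a fl/- and 2.06% and 2.02% in Brg1 fl/fl, and 3.74% to 4.13% in the wild-type lists.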
